A study of Homo sapiens with 9 samples.

Results

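The 39 genes described here encode the chaperones and folding enzymes of the endoplasmic reticulum (ER). They were chosen by function and fall into 5 classes, namely 10 genes of the HSP70 and HSP90 system, 4 lectin chaperones, 15 disulfide isomerases and their relatives, 3 thiol oxidases and 7 prolyl isomerases. They are 39 of the 58395 gene identifiers counted, and all 39 passed the low-count filter that left 16761 genes for testing. RNA was sequenced from MDA-MB-231, a human triple-negative breast cancer cell line, 96 h after reverse transfection with a non-targeting control siRNA (siNC) or with either of 2 siRNAs against ZIP7, siZIP7_1 and siZIP7_2. Each siRNA had 3 libraries, and the labels give all cells the same culture in DMEM with serum and no further agent. The counting of reads per gene gave between 24153785 and 30454419 reads on genes per library. The study describes its transfections as made in triplicate, and the labels do not say whether the libraries came from separate cultures or days, so p-values measure the spread between these libraries, part of which may be technical.

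Proteins that enter the secretory pathway fold in the ER lumen. HSP70 and HSP90 chaperones hold unfolded chains there in cycles of ATP hydrolysis, lectin chaperones hold glycoproteins by their sugars, protein disulfide isomerases form and reshuffle disulfide bonds, oxidases pass electrons from these isomerases to oxygen, and prolyl isomerases speed up the turning of proline peptide bonds. When unfolded proteins accumulate, the sensors IRE1, PERK and ATF6 start the unfolded protein response (UPR), which is known for raising the transcription of many of these genes through short promoter elements. ZIP7, the product of SLC39A7, moves zinc from the ER to the cytosol, and several proteins of the ER lumen bind zinc.

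The knockdown was checked first. SLC39A7 (chr6:33200445-33204439, plus strand, GRCh38) was measured at 321, 343 and 322 CPM in the siNC libraries, 35.4, 32.9 and 38.6 CPM in those of siZIP7_1 and 20.5, 19.5 and 17.6 CPM in those of siZIP7_2, where CPM is the TMM-scaled share of a library's counts times 1e6. Every siZIP7 library lay below every siNC library, and the 3 siZIP7_2 libraries lay below the 3 siZIP7_1 libraries. The log2 difference between the siRNAs was -0.89 (adjusted p = 4.89e-13, SE 0.0663, by the quasi-likelihood test of edgeR, adjusted over all genes tested as is every adjusted p below). In bulk RNA, fewer cells with a transcript and less of it per cell cannot be told apart. The labelled cell line was checked against its markers. The mesenchymal marker VIM was at 5529 ± 180.4 CPM (SD, n = 3) with siNC, and all 8 markers of the line were detected in every library. The hormone receptor genes ESR1 and PGR, which define triple-negative cells by their absence, had at most 15 and 2 counts in any library, and ERBB2 was at 74.2 ± 2.15 CPM (SD, n = 3) with siNC. The siRNA groups also differed in markers outside the folding genes. Of the 8 markers of the line, 2 were higher and 5 lower with siZIP7_1, and 2 were higher and 6 lower with siZIP7_2. VIM was at 2687 ± 105 CPM (SD, n = 3) with siZIP7_1 and at 2896 ± 69.2 CPM (SD, n = 3) with siZIP7_2. The siRNAs differed in direction for CD44, a surface glycoprotein on the same marker list, whose siNC mean was 816 ± 39.3 CPM. It averaged 465 ± 32.7 CPM in the siZIP7_1 libraries, and 1793 ± 56.8 CPM was its siZIP7_2 mean (SD, n = 3 for each). Epithelial junction genes (5 genes) summed to 32.1, 31.1 and 32.7 CPM with siNC, 46.1, 49.1 and 46.3 CPM with siZIP7_1 and 184, 162 and 182 CPM with siZIP7_2, with CLDN4 the most abundant of them in every library. Fibroblast markers (5 genes) summed to 63.9, 57.7 and 60.2 CPM with siNC, 133, 123 and 131 CPM with siZIP7_1 and 210.0, 185 and 201 CPM with siZIP7_2. COL1A1 made up at least 86.5% of this sum in every library, while COL1A2 and DCN had at most 7 and 2 counts in a library. Leukocyte markers (5 genes) summed to 7.26, 5.80 and 6.41 CPM, 1.78, 1.72 and 1.63 CPM, and 22.5, 16.6 and 19.0 CPM in the same order, with CSF1R, PTPRC and CD14 leading in turn, and CD3E had at most 1 count in any library. Endothelial markers (5 genes) summed to 6.86, 7.09 and 7.65 CPM, 10.3, 9.10 and 8.35 CPM, and 17.6, 18.1 and 16.5 CPM, with KDR leading under siNC and siZIP7_1 and PECAM1 under siZIP7_2, and CDH5 had at most 1 count in a siNC library. The mitochondrial transcripts took 2.26% to 2.65% of gene reads with siNC, 2.66% to 2.81% with siZIP7_1 and 3.27% to 3.88% with siZIP7_2. Reads that the counting assigned to no annotated feature, which can include intronic reads, made up 7.43% to 8.28%, 7.80% to 9.62% and 9.99% to 11.5% of reads in the same order. The part of these differences in the results below was not tested.

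Most genes of the transcriptome moved with each siRNA, so the count of folding genes past the threshold was read against that background. With siZIP7_1, 36 of the 39 folding genes passed the threshold, where 70.7% of all genes tested did. Of these 26 were higher (34.8% of all genes) and 10 were lower (35.9% of all genes). With siZIP7_2, 34 passed, where 77.8% of all genes did, and 21 were higher (38.5% of all genes) and 13 were lower (39.3% of all genes). Thus 66.7% and 53.8% of the folding genes were higher, above the share of all genes, and 25.6% and 33.3% were lower, below it, a difference that was not tested. The median log2 fold change of the 39 genes was 0.17 with siZIP7_1 and 0.16 with siZIP7_2, where the median of all genes tested was -0.01 and 0.00. These comparisons share the siNC libraries, so their counts are given side by side and are not independent of each other. By at least 1.5-fold, 14 folding genes (35.9%) changed with siZIP7_1, where 38.4% of all genes tested did, and 12 (30.8%) with siZIP7_2, where 48.1% did. At least 1.5-fold higher were 9 folding genes (23.1%) with siZIP7_1 against 19.6% of all genes, and 7 (17.9%) with siZIP7_2 against 24.9%. At least 1.5-fold lower were 5 folding genes (12.8%) with each siRNA, against 18.8% and 23.2% of all genes. The siZIP7_2 count was smaller under upper-quartile scaling and when every library had to hold 10 counts, as given in the processing section. The share of large increases with siZIP7_1 lay near that of all genes, and none of these shares was tested. Under a test against a 1.2-fold change (glmTreat of edgeR), 15 folding genes (38.5%) were higher and 7 (17.9%) lower with siZIP7_1, against 25.4% and 25.7% of all genes. With siZIP7_2 that test gave 13 (33.3%) higher and 9 (23.1%) lower, against 30.5% and 30.8% of all genes. The SD of the log2 fold changes over the 39 genes was 0.58 with siZIP7_1 and 0.65 with siZIP7_2, below the SD over all genes tested, which was 1.05 and 1.19. Each folding gene had at least 44 counts in every library, while all genes tested include less abundant ones. The SDs and shares above are thus not matched for abundance. The classes differed in how their members lay, as the plot of log2 fold changes by class shows.

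**Figure D1:**
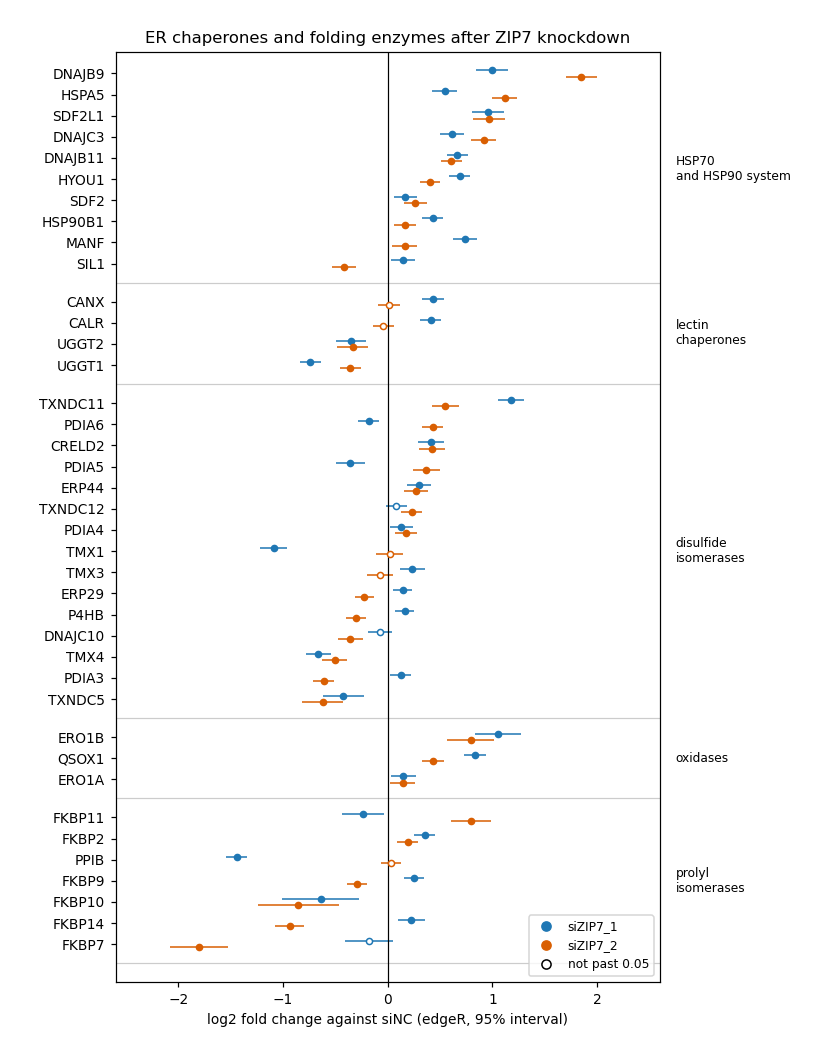
Log2 fold change of each of the 39 folding genes against siNC (x axis, edgeR) for siZIP7_1 (blue) and siZIP7_2 (orange), with 95% intervals, grouped by class on the y axis. Open circles did not pass the adjusted threshold of 0.05. All 10 genes of the HSP70 and HSP90 system lie to the right of 0 with siZIP7_1 and 9 of 10 with siZIP7_2, while the prolyl isomerases lie on both sides.

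The promoters of the folding genes were read for the elements through which the UPR is known to act, since several of the genes are textbook targets of it. RefSeq promoters (GRCh38.p14, 250 bases before to 50 bases after each transcription start) matched 36 of the 39 genes by symbol. PDIA3, FKBP10 and FKBP14 had no match. The ER stress response element (ERSE), searched on both strands as CCAAT and CCACG with 9 bases of any kind (N) between them, is known to be bound by the factors NF-Y and ATF6. It was found in HSPA5, HSP90B1, CALR, CANX, PDIA6, CRELD2 and ERO1B. ERSE-II, searched on both strands as ATTGG and CCACG with 1 base of any kind between them, was found in HYOU1 and SDF2L1. Thus 9 of 36 matched folding genes (25%) held ERSE or ERSE-II, against 44 of the 27305 gene symbols with a promoter (0.161%). The 44 symbols include these folding genes. Since several of them are textbook targets, a high share was likely beforehand, and it describes the list and was not tested. HSP90B1 held 2 ERSE matches and HYOU1 held 2 ERSE-II matches. The core of the UPR element bound by XBP1, searched as TGACGTGG on both strands, was found in HYOU1, TXNDC5, TXNDC11 and DNAJC10, which was 11.1% of the folding genes and 0.927% of all symbols. In HYOU1 it overlaps an ERSE-II match. CCACG alone, which lies inside ERSE and ERSE-II, was in 80.6% of the folding genes and in 42.1% of all symbols. A match describes the letters and does not show that a factor was bound.

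The HSPA5 promoter is printed up to its transcription start because HSPA5 is the reference target of the UPR, and the stretch around each match is printed for the other genes to show how the same letters recur at different distances and on either strand. All are written 5′ to 3′ on the strand of the gene. Capitals mark the fixed letters of the match. Where a match lies on the other strand these letters read as the reverse complement. In the first HYOU1 stretch the capitals also cover the overlapping TGACGTGG. The matches of CANX and HSP90B1 lie inside leaders transcribed from other annotated starts of these genes, and their sequences are not shown. The printed matches of CRELD2 and PDIA6 also lie downstream of another annotated start of the same gene.
HSPA5 (chr9:125241344-125241593, minus strand), bases -250 to -1 from the start: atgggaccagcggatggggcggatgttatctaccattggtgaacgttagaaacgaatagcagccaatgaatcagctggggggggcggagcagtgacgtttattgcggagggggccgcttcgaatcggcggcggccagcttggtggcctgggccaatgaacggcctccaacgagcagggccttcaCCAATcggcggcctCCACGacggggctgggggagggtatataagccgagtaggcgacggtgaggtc
HYOU1 (chr11:119057365-119057405, minus strand), ERSE-II from -185: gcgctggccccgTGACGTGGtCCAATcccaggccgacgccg
HYOU1 (chr11:119057259-119057299, minus strand), ERSE-II from -79: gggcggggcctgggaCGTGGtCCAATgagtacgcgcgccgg
SDF2L1 (chr22:21642099-21642139, plus strand), ERSE-II from -188: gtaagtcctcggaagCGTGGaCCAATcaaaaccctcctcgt
CALR (chr19:12938369-12938417, plus strand), ERSE from -225: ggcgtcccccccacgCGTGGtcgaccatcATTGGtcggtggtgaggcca
PDIA6 (chr2:10812838-10812886, minus strand), ERSE from -86: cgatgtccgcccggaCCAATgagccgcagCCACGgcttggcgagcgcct
CRELD2 (chr22:49918539-49918587, plus strand), ERSE from -80: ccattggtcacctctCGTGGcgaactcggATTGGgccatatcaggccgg
ERO1B (chr1:236282168-236282208, minus strand), ERSE from -243: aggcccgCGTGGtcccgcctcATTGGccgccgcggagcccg

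**Figure D2:**
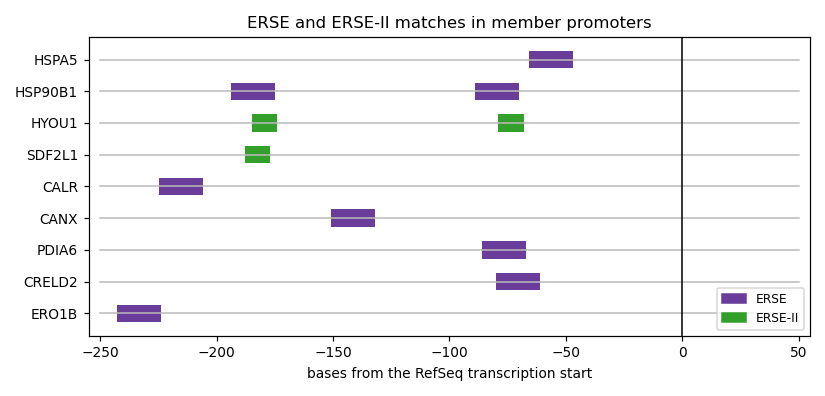
Position of each ERSE (violet) and ERSE-II (green) match in the promoters of the 9 genes that hold them, in bases from the RefSeq transcription start (x axis, start at 0), with the window searched in grey. The matches lie from -243 (ERO1B) to -48 (HSPA5) for the starts drawn, and the CANX match, drawn at -151, lies at -9 and -189 from other RefSeq starts of CANX.

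Of the 9 genes with ERSE or ERSE-II, 8 were higher with siZIP7_1 and PDIA6 was lower (log2 -0.18). With siZIP7_2, 7 were higher and CALR and CANX did not pass the threshold. The median of the 9 log2 fold changes was 0.43 for siZIP7_1 and 0.42 for siZIP7_2. Of the 27 matched genes without either element, 16 were higher and 8 lower with siZIP7_1 (median 0.14), and 14 were higher and 10 lower with siZIP7_2 (median 0.14). Over all genes tested, 34.8% were higher and 35.9% lower with siZIP7_1, and 38.5% were higher and 39.3% lower with siZIP7_2. Genes are not replicates, so these counts are a description and were not tested against each other.

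Nearly every gene of the HSP70 and HSP90 system was higher with each siRNA. All 10 genes were higher with siZIP7_1, and with siZIP7_2 9 were higher and SIL1 was lower. At least 1.5-fold higher were 6 of them with siZIP7_1 and 5 with siZIP7_2, and the class median was a log2 fold change of 0.64 and 0.50. Of all genes tested, 34.8% and 38.5% were higher with the same siRNAs, 19.6% and 24.9% were higher by at least 1.5-fold, and the medians were -0.01 and 0.00. HSPA5 (chr9:125234853-125241330, minus strand), the ER HSP70 also known as BiP and a brake on the UPR sensors, was measured at 768, 757 and 736 CPM in the siNC libraries, 1084, 1145 and 1068 CPM in those of siZIP7_1 and 1784, 1448 and 1676 CPM in those of siZIP7_2. The 3 groups did not overlap, with siZIP7_1 between the other groups. Its log2 fold change was 0.54 (adjusted p = 1.4e-09, SE 0.0574, edgeR) for siZIP7_1 and 1.12 (adjusted p = 1.53e-16, SE 0.0579, edgeR) for siZIP7_2, and the siRNAs differed by 0.57 (adjusted p = 3.23e-10, SE 0.0573, edgeR).

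DNAJB9 (chr7:108569568-108574850, plus strand), an HSP40 that brings HSPA5 to unfolded chains and to the sensor IRE1, changed most in this class in all 3 comparisons. It was at 19.6, 21.1 and 23.3 CPM in the siNC libraries, 40.4, 45.9 and 41.2 CPM in those of siZIP7_1 and 83.2, 68.4 and 78.9 CPM in those of siZIP7_2. Again the groups stood apart in the order siNC, siZIP7_1 and siZIP7_2. The log2 fold change was 0.99 (adjusted p = 9.4e-13, SE 0.0745, edgeR) for siZIP7_1 and 1.85 (adjusted p = 2.42e-19, SE 0.0725, edgeR) for siZIP7_2, with a difference of 0.85 (SE 0.0667) between the siRNAs. DNAJC3, a co-chaperone also known as an inhibitor of eIF2-alpha kinases, kept that order, with log2 fold changes of 0.62 and 0.91. HSP90B1 (chr12:103930107-103953645, plus strand), the ER HSP90 also called GRP94, was at 1006, 983 and 1032 CPM in the siNC libraries, 1311, 1464 and 1288 CPM in those of siZIP7_1 and 1147, 1099 and 1142 CPM in those of siZIP7_2. Here the order was different, because the siZIP7_1 libraries were highest and the siZIP7_2 libraries lay between them and siNC. Its log2 fold change was 0.43 (adjusted p = 1.35e-08, SE 0.0507, edgeR) for siZIP7_1 and 0.17 (adjusted p = 0.00417, SE 0.0506, edgeR) for siZIP7_2, and siZIP7_2 was lower than siZIP7_1 by a log2 difference of -0.26 (adjusted p = 3.16e-05, edgeR). Under upper-quartile scaling the siZIP7_2 value of HSP90B1 was 0.27 (adjusted p = 7.39e-06, edgeR).

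The remaining genes of the class are helpers of HSPA5. HYOU1, a large HSP70 relative that exchanges nucleotide on HSPA5, was 1.61-fold higher with siZIP7_1 and 1.32-fold higher with siZIP7_2. SIL1, the other nucleotide exchange factor, parted from it, with 62.1 ± 2.39 CPM for siNC, 68.6 ± 1.61 CPM for siZIP7_1 and 46.6 ± 3.70 CPM for siZIP7_2 (SD, n = 3 for each). SIL1 moved by 0.14 on the log2 scale for siZIP7_1 (adjusted p = 0.0218, edgeR) and -0.42 for siZIP7_2 (adjusted p = 1.39e-07, edgeR), so siZIP7_2 had the lowest libraries. DNAJB11, an HSP40 of the lumen, rose by a log2 fold change of 0.66 and 0.61. Its partners SDF2L1 and SDF2 rose by 0.95 and 0.17 with siZIP7_1, and by 0.96 and 0.26 with siZIP7_2. For SDF2L1 the siRNAs differed by 0.01 (95% interval -0.13 to 0.15). MANF, a small protein that binds HSPA5 and is secreted under stress, rose by 0.74 with siZIP7_1 and by 0.16 with siZIP7_2. The MANF call with siZIP7_2 was lost without siNC replicate 1 (adjusted p = 0.051, edgeR) and without siZIP7_2 replicate 1 (adjusted p = 0.0833, edgeR), and that of SIL1 with siZIP7_1 without siNC replicate 3 (adjusted p = 0.0823, edgeR) or siZIP7_1 replicate 2 (adjusted p = 0.0589, edgeR). Without a low-count filter MANF had an adjusted p of 0.141 (edgeR) with siZIP7_2. With upper-quartile scaling its siZIP7_2 value was larger, at 0.27 (adjusted p = 0.000167, edgeR). Other genes overlap 23.2% of the exonic length of DNAJB11 and 15.8% of that of SDF2.

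The lectin chaperones split by function with siZIP7_1. The holding chaperones CALR and CANX were higher, while UGGT1 and UGGT2, the enzymes that mark misfolded glycoproteins with glucose, were lower. With siZIP7_2 the enzymes were lower and the chaperones did not pass the threshold. For these 4 genes the shares of all genes are 34.8% higher and 35.9% lower with siZIP7_1, and 38.5% and 39.3% with siZIP7_2. CALR (chr19:12938578-12944489, plus strand), soluble calreticulin, was at 1632, 1724 and 1654 CPM in the siNC libraries, 2170, 2279 and 2214 CPM in those of siZIP7_1 and 1685, 1540 and 1644 CPM in those of siZIP7_2. The siZIP7_1 libraries lay above all others, and those of siZIP7_2 overlapped siNC. Its log2 fold change was 0.41 (adjusted p = 1.41e-08, SE 0.0488, edgeR) for siZIP7_1 and -0.04 with siZIP7_2 (95% interval -0.14 to 0.06, adjusted p = 0.44, edgeR), and the siRNAs differed by -0.45 (adjusted p = 1.58e-09, edgeR). CANX (chr5:179678628-179730925, plus strand), its membrane-bound relative calnexin, was at 1234, 1339 and 1360 CPM in the siNC libraries, 1714, 1889 and 1704 CPM in those of siZIP7_1 and 1315, 1297 and 1356 CPM in those of siZIP7_2. The pattern across groups was that of CALR, with siZIP7_1 above and siZIP7_2 overlapping siNC. The log2 fold change of CANX was 0.43 (adjusted p = 1.5e-08, SE 0.0515, edgeR) for siZIP7_1, 0.01 with siZIP7_2 (95% interval -0.09 to 0.12, adjusted p = 0.83, edgeR) and -0.42 between the siRNAs (adjusted p = 1.94e-08, edgeR). UGGT1 (chr2:128091200-128195677, plus strand) was at 133, 139.5 and 129 CPM in the siNC libraries, 82.8, 79.5 and 78.0 CPM in those of siZIP7_1 and 102, 102 and 109 CPM in those of siZIP7_2. No siZIP7 library reached a siNC library, and the siZIP7_1 libraries were lowest. This was a log2 fold change of -0.74 (adjusted p = 5.06e-14, SE 0.0488, edgeR) for siZIP7_1 and -0.36 (adjusted p = 1.19e-07, SE 0.0482, edgeR) for siZIP7_2. UGGT2, its less abundant relative, had log2 fold changes of -0.35 and -0.34, both past the threshold. With upper-quartile scaling, which moved the median of all genes up with siZIP7_2, the value of CANX there passed the threshold (adjusted p = 0.0229, edgeR).

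**Figure D3:**
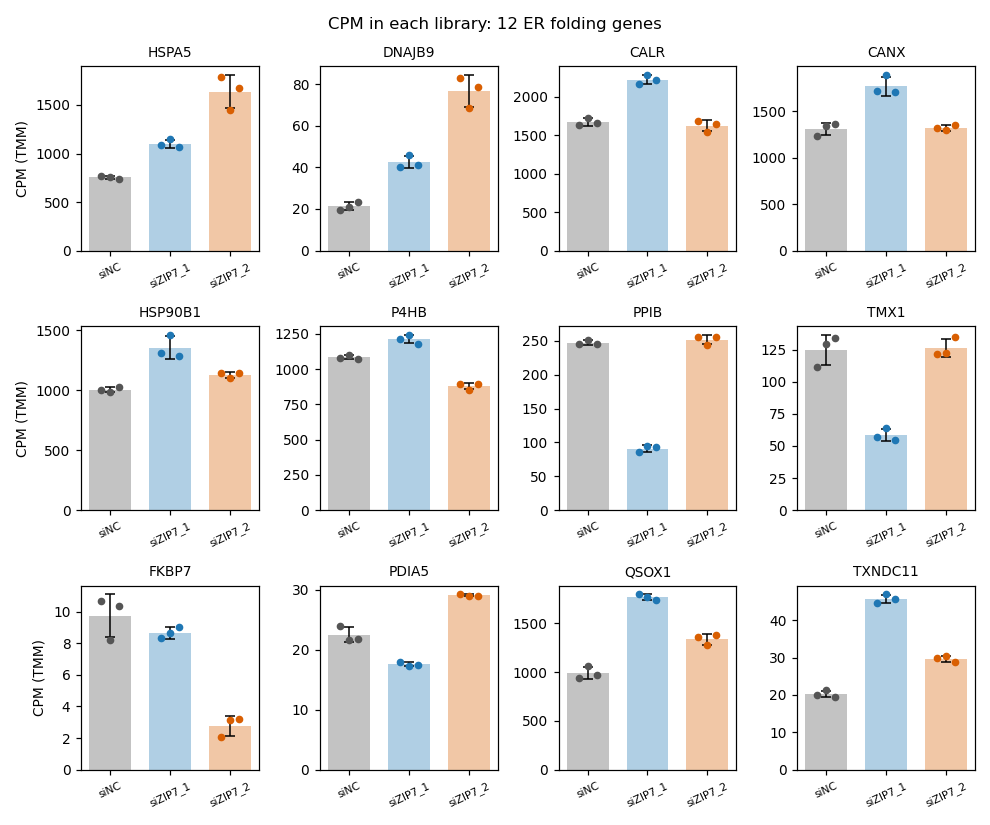
CPM of 12 folding genes in each of the 9 libraries (points), with the mean (bar) and SD (whisker) of 3 libraries per siRNA, where y axes start at 0 and scales differ between genes. HSPA5 and DNAJB9 rise in the order siNC, siZIP7_1 and siZIP7_2, CALR and CANX stand out with siZIP7_1 alone, and PPIB and TMX1 are low in the siZIP7_1 libraries while their siZIP7_2 libraries overlap siNC.

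The disulfide isomerases were divided in direction. With siZIP7_1, 8 of 15 were higher and 5 lower, and with siZIP7_2 7 were higher and 6 lower, with class medians of 0.12 and 0.02 on the log2 scale. These were 53.3% higher and 33.3% lower with siZIP7_1, against 34.8% and 35.9% of all genes, and 46.7% and 40% with siZIP7_2, against 38.5% and 39.3%, so that the lower shares lay near the background with each siRNA. Tested against a 1.2-fold change (glmTreat), only TXNDC11 and CRELD2 stayed higher with siZIP7_1, and PDIA5, TXNDC5, TMX1 and TMX4 stayed lower. With siZIP7_2, PDIA5, PDIA6, TXNDC11 and CRELD2 stayed higher, and PDIA3, TXNDC5, TMX4 and DNAJC10 stayed lower. Of all genes, 25.4% were higher and 25.7% lower under that test with siZIP7_1, and 30.5% and 30.8% with siZIP7_2. P4HB (chr17:81843159-81860694, minus strand), the founding member PDI and a subunit of collagen prolyl 4-hydroxylase, was at 1080, 1101 and 1074 CPM in the siNC libraries, 1215, 1243 and 1181 CPM in those of siZIP7_1 and 894, 854 and 892 CPM in those of siZIP7_2. The siZIP7_1 libraries lay above siNC and the siZIP7_2 libraries below it, without overlap. The log2 fold change was 0.16 (adjusted p = 0.00259, SE 0.0456, edgeR) for siZIP7_1 and -0.30 (adjusted p = 8.6e-07, SE 0.0457, edgeR) for siZIP7_2, a difference of -0.46 (adjusted p = 2.63e-10, edgeR). PDIA3, which works on glycoproteins held by CALR and CANX, had the same signs, with 0.12 and -0.61. ERP29, a relative without the active cysteine pair, did too, with 0.14 and -0.22. Under upper-quartile scaling the siZIP7_2 values were smaller, at -0.20 for P4HB and -0.12 for ERP29, and still past the threshold (adjusted p = 0.000161 and 0.0108, edgeR). PDIA5 and PDIA6 took the opposite course. PDIA5 (chr3:123067062-123225227, plus strand) was at 24, 21.7 and 21.8 CPM in the siNC libraries, 18.0, 17.3 and 17.5 CPM in those of siZIP7_1 and 29.2, 28.9 and 28.99 CPM in those of siZIP7_2. Its siZIP7_1 libraries were the lowest and its siZIP7_2 libraries the highest, again without overlap. PDIA5 was the only folding gene past the threshold in opposite directions by at least 1.2-fold with each siRNA, at -0.36 (adjusted p = 2.31e-05, SE 0.0664, edgeR) and 0.37 (adjusted p = 7.03e-06, SE 0.0636, edgeR). PDIA6, an isomerase also known as P5, was at 402 ± 9.19 CPM for siNC, 354 ± 24.6 CPM for siZIP7_1 and 540.5 ± 19.1 CPM for siZIP7_2 (SD, n = 3 for each), a log2 fold change of -0.18 and 0.43. PDIA4, an isomerase with several thioredoxin domains, rose by 0.13 and 0.17. Under upper-quartile scaling its siZIP7_2 value was 0.28 (adjusted p = 1.3e-05, edgeR). The calls of PDIA3 and PDIA4 with siZIP7_1 were lost without siNC replicate 1 (adjusted p = 0.0513 and 0.0948, edgeR) or siZIP7_1 replicate 2 (adjusted p = 0.148 and 0.133, edgeR), and that of PDIA3 also without siNC replicate 2 (adjusted p = 0.0601, edgeR). Other genes overlap between 14.3% and 25.2% of the exonic length of PDIA3, PDIA5, PDIA6 and ERP29.

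Among the isomerases TXNDC11, TXNDC5 and TMX1 had the largest log2 values for siZIP7_1, for siZIP7_2 and between the siRNAs, in that order. TXNDC11 (chr16:11679080-11742878, minus strand), a membrane thioredoxin-like protein known from the maturation of dual oxidases, was at 19.9, 21.3 and 19.5 CPM in the siNC libraries, 44.6, 46.9 and 45.6 CPM in those of siZIP7_1 and 29.8, 30.3 and 28.7 CPM in those of siZIP7_2. All siZIP7 libraries lay above siNC, and those of siZIP7_1 were highest. Its log2 fold change was 1.18 (adjusted p = 1.12e-16, SE 0.0597, edgeR) for siZIP7_1 and 0.55 (adjusted p = 3.88e-09, SE 0.0619, edgeR) for siZIP7_2. TMX1 (chr14:51240162-51257546, plus strand), a membrane isomerase that prefers membrane-bound substrates, was at 111, 129 and 134 CPM in the siNC libraries, 56.9, 64.2 and 54.9 CPM in those of siZIP7_1 and 122, 123 and 135 CPM in those of siZIP7_2. The siZIP7_1 libraries stood well below all others, while the siZIP7_2 libraries overlapped siNC. The log2 fold change was -1.09 (adjusted p = 3.51e-15, SE 0.0639, edgeR) for siZIP7_1, 0.02 with siZIP7_2 (95% interval -0.11 to 0.14, adjusted p = 0.798, edgeR) and 1.11 between the siRNAs (adjusted p = 1.47e-15, edgeR). Its relatives TMX3 and TMX4 differed from each other. TMX3 was higher with siZIP7_1 at 0.23 and at -0.07 with siZIP7_2 (adjusted p = 0.256, edgeR), and TMX4 was lower with each, at -0.66 and -0.51. TXNDC5 (chr6:7881517-7910814, minus strand), also called ERp46, was at 21.7, 24.5 and 19.1 CPM in the siNC libraries, 17.8, 15.9 and 14.9 CPM in those of siZIP7_1 and 11.7, 15.9 and 14.6 CPM in those of siZIP7_2. Both siZIP7 groups lay below siNC and overlapped each other, with log2 fold changes of -0.42 (adjusted p = 0.000221, SE 0.0939, edgeR) and -0.62 (adjusted p = 1.19e-06, SE 0.0962, edgeR). Of its exonic length, 60.6% is shared with the read-through gene BLOC1S5-TXNDC5, and 49.7% of that of TXNDC12 is shared with other genes, so reads could be split or lost there.

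Of the other isomerases, ERP44, which retains oxidases and unfinished antibodies in the early secretory pathway, rose by 0.30 and 0.27. CRELD2, a stress-induced protein with isomerase-like motifs, rose by 0.41 and 0.42, with a difference between the siRNAs of 0.01 (95% interval -0.11 to 0.13). TXNDC12, a small thioredoxin-like protein, rose with siZIP7_2 by 0.23, and its value with siZIP7_1 was 0.08 (adjusted p = 0.119, edgeR). That value passed the threshold under upper-quartile scaling (0.11, adjusted p = 0.0287, edgeR) and with at least 10 counts required in every library (0.11, adjusted p = 0.0384, edgeR). DNAJC10, a reductase that opens wrong disulfides before degradation, fell with siZIP7_2 (-0.36) and was at -0.08 with siZIP7_1 (adjusted p = 0.219, edgeR). Without siZIP7_1 replicate 2 the latter was -0.15 and passed the threshold (adjusted p = 0.0145, edgeR).

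All 3 oxidases were higher with each siRNA, with a class median log2 fold change of 0.84 with siZIP7_1 and 0.43 with siZIP7_2. Both class medians are the values of QSOX1. Of all genes, 34.8% and 38.5% were higher, with medians of -0.01 and 0.00. QSOX1 (chr1:180154834-180204030, plus strand), a sulfhydryl oxidase that acts mostly in the Golgi and outside the cell, was at 945, 1061 and 966 CPM in the siNC libraries, 1797, 1772 and 1740 CPM in those of siZIP7_1 and 1358, 1276 and 1383 CPM in those of siZIP7_2. The siZIP7_1 libraries were highest and the siZIP7_2 libraries lay between them and siNC. Its log2 fold change was 0.84 (adjusted p = 7.96e-15, SE 0.0509, edgeR) for siZIP7_1 and 0.43 (adjusted p = 8.05e-09, SE 0.0507, edgeR) for siZIP7_2. ERO1B (chr1:236215555-236281985, minus strand), the less abundant of the ERO1 enzymes that reoxidize PDI, was at 6.25, 6.57 and 9.04 CPM in the siNC libraries, 16.2, 14.9 and 14.6 CPM in those of siZIP7_1 and 13.7, 13.1 and 11.1 CPM in those of siZIP7_2. Every siZIP7 library lay above every siNC library, and the log2 fold change was 1.05 (adjusted p = 7.08e-10, SE 0.108, edgeR) for siZIP7_1 and 0.79 (adjusted p = 2.27e-07, SE 0.111, edgeR) for siZIP7_2. ERO1A (chr14:52639916-52695900, minus strand), the more abundant one, was at 191, 209.7 and 228 CPM in the siNC libraries, 232, 254 and 212 CPM in those of siZIP7_1 and 230.5, 225 and 239.5 CPM in those of siZIP7_2. With siZIP7_1 the libraries overlapped siNC, and with siZIP7_2 the lowest library (225 CPM) was below the highest siNC library (228 CPM). The small ERO1A changes of 0.15 (adjusted p = 0.0264, SE 0.0595, edgeR) and 0.14 (adjusted p = 0.0317, SE 0.0596, edgeR) passed the threshold with all libraries, and both calls depended on single libraries. Without siNC replicate 1 the values were 0.08 and 0.07 (adjusted p = 0.233 and 0.308, edgeR), and without siNC replicate 2 they were 0.16 and 0.14 (adjusted p = 0.0588 and 0.0803, edgeR), none past the threshold. Without siNC replicate 3 the siZIP7_1 value was 0.23 (adjusted p = 0.00313, edgeR). The siZIP7_1 call was also lost without siZIP7_1 replicate 2 (0.08, adjusted p = 0.204, edgeR), and the siZIP7_2 call without siZIP7_2 replicate 3 (0.12, adjusted p = 0.114, edgeR) and with no low-count filter (0.09, adjusted p = 0.14, edgeR). The siZIP7_2 value was larger with at least 10 counts in every library (0.22, adjusted p = 0.00186, edgeR). It was also larger with upper-quartile scaling (0.25, adjusted p = 0.000253, edgeR).

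The prolyl isomerases differed widely between the siRNAs. With siZIP7_1, 3 of 7 were higher and 3 lower, and with siZIP7_2 2 were higher and 4 lower, with class medians of -0.18 and -0.30 on the log2 scale. With siZIP7_1 42.9% were thus higher and 42.9% lower, near the 34.8% and 35.9% of all genes, and with siZIP7_2 28.6% were higher and 57.1% lower, where 38.5% and 39.3% of all genes were. PPIB (chr15:64155812-64163205, minus strand), cyclophilin B and the most abundant of them, was at 246, 251 and 245 CPM in the siNC libraries, 85.3, 94.2 and 93.6 CPM in those of siZIP7_1 and 256, 244 and 256 CPM in those of siZIP7_2. The siZIP7_1 libraries were far below all others and the siZIP7_2 libraries overlapped siNC. Its log2 fold change was -1.44 (adjusted p = 7.52e-21, SE 0.0485, edgeR) for siZIP7_1, the lowest of the 39 genes, and 0.03 with siZIP7_2 (95% interval -0.07 to 0.12, adjusted p = 0.609, edgeR), and the siRNAs differed by 1.47 (adjusted p = 2.39e-21, edgeR). With upper-quartile scaling the small siZIP7_2 value passed the threshold (0.13, adjusted p = 0.008, edgeR). It also did with at least 10 counts in every library (0.10, adjusted p = 0.0416, edgeR). On the opposite strand SNX22 overlaps 27.2% of its exonic length, and the strand setting of the counting is not given in the sources used here. FKBP7 (chr2:178463664-178478600, minus strand), a low-abundance lumenal FK506-binding protein, had the reverse pattern, at 10.7, 8.21 and 10.4 CPM in the siNC libraries, 8.30, 8.62 and 9.01 CPM in those of siZIP7_1 and 2.06, 3.12 and 3.19 CPM in those of siZIP7_2. The siZIP7_2 libraries lay below all others, and the siZIP7_1 libraries overlapped siNC. The log2 fold change was -1.80 (adjusted p = 5.85e-13, SE 0.134, edgeR) with siZIP7_2, the lowest of the 39 genes there, and -0.18 (95% interval -0.40 to 0.05, adjusted p = 0.149, edgeR) with siZIP7_1. Without siNC replicate 2, the lowest siNC library for FKBP7, the siZIP7_1 value was -0.27 and passed the threshold (adjusted p = 0.0355, edgeR).

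FKBP14 and FKBP10 act on collagens and are mutated in connective tissue disorders. FKBP14 was at 35.8 ± 1.51 CPM for siNC, 41.9 ± 2.68 CPM for siZIP7_1 and 18.7 ± 1.21 CPM for siZIP7_2 (SD, n = 3 for each), so that it was higher with the first siRNA (0.23) and lower with the second (-0.94). FKBP9, another lumenal family member, moved the same way, at 0.25 and -0.30. Its siZIP7_2 value was -0.19 under upper-quartile scaling (adjusted p = 0.000367, edgeR). FKBP10, the least abundant folding gene with 3.40 ± 1.06 CPM (SD, n = 3) in siNC, was lower with each, at -0.64 and -0.85, but these values rest in large part on siNC replicate 3. Without that library they were -0.33, which did not pass the threshold (adjusted p = 0.103, edgeR), and -0.55, which did (adjusted p = 0.00906, edgeR). FKBP11 was lower with siZIP7_1 (-0.23, adjusted p = 0.0364, edgeR) and higher with siZIP7_2 (0.79, adjusted p = 6.84e-09, edgeR). The first call was lost under 6 alternatives, among them without siNC replicate 1 (adjusted p = 0.185, edgeR), siNC replicate 3 (adjusted p = 0.0607, edgeR) and siZIP7_1 replicate 2 (-0.11, adjusted p = 0.283, edgeR). FKBP2, the small lumenal FKBP13 protein, was the only prolyl isomerase higher with each siRNA, at 0.35 and 0.19. The latter was 0.30 under upper-quartile scaling (adjusted p = 3.1e-06, edgeR).

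The test of one siRNA against the other used the siNC libraries only through the scaling, the low-count filter (and so the genes over which p was adjusted) and the estimate of the spread. Between siZIP7_2 and siZIP7_1, 29 of 39 folding genes passed the threshold (78.7% of all genes tested), of which 11 were higher with siZIP7_2 (38.1% of all genes tested) and 18 were lower (40.6% of all genes). At least 1.5-fold apart were 10 genes (25.6%, against 50% of all genes), 6 higher (15.4% against 25.2%) and 4 lower (10.3% against 24.7%). The 3 largest log2 differences were FKBP7 at -1.62, PPIB at 1.47 and FKBP14 at -1.16, all prolyl isomerases. Within the HSP70 and HSP90 system 3 genes were higher with siZIP7_2 (HSPA5, DNAJB9 and DNAJC3) and 4 were lower (HSP90B1, HYOU1, SIL1 and MANF). Of the oxidases and lectin chaperones, 4 were lower with siZIP7_2 and UGGT1 was higher, with QSOX1 at -0.40, CALR at -0.45, CANX at -0.42 and ERO1B at -0.26. The ERO1B call was lost with DESeq2 (adjusted p = 0.0625), with edgeR after upper-quartile scaling (adjusted p = 0.105) or with at least 10 counts required in each library (adjusted p = 0.0578), and without siZIP7_1 replicate 1 (adjusted p = 0.0599, edgeR) or siZIP7_2 replicate 3 (adjusted p = 0.131, edgeR). Apart from the test against a 1.2-fold change, TXNDC12, TMX4 and FKBP2 also lost their call between the siRNAs under at least 1 alternative, and SDF2, PDIA4 and TXNDC5 gained one. For TMX4 the value of 0.16 was 0.10 without siZIP7_1 replicate 1 (adjusted p = 0.168, edgeR). The median difference over the 39 genes was -0.16, against -0.02 over all genes tested. SLC39A7 itself was lower with siZIP7_2, and the libraries of the siRNAs also differ in the marker genes and read shares given above.

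Levels were compared between genes per kilobase of exonic length. In siNC the order began with CALR at 616 RPKM (CPM per kilobase), HSP90B1 at 214, CANX at 210.3, P4HB at 205 and HSPA5 at 193 RPKM. It ended with ERO1B at 1.36 RPKM and FKBP10 at 0.796 RPKM. With siZIP7_2 HSPA5 rose to 419 RPKM, above HSP90B1, CANX and P4HB, and CALR was at 598 RPKM. PPIB, in the upper part of the order in siNC at 129 RPKM, was at 47.6 RPKM with siZIP7_1.

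**Figure D4:**
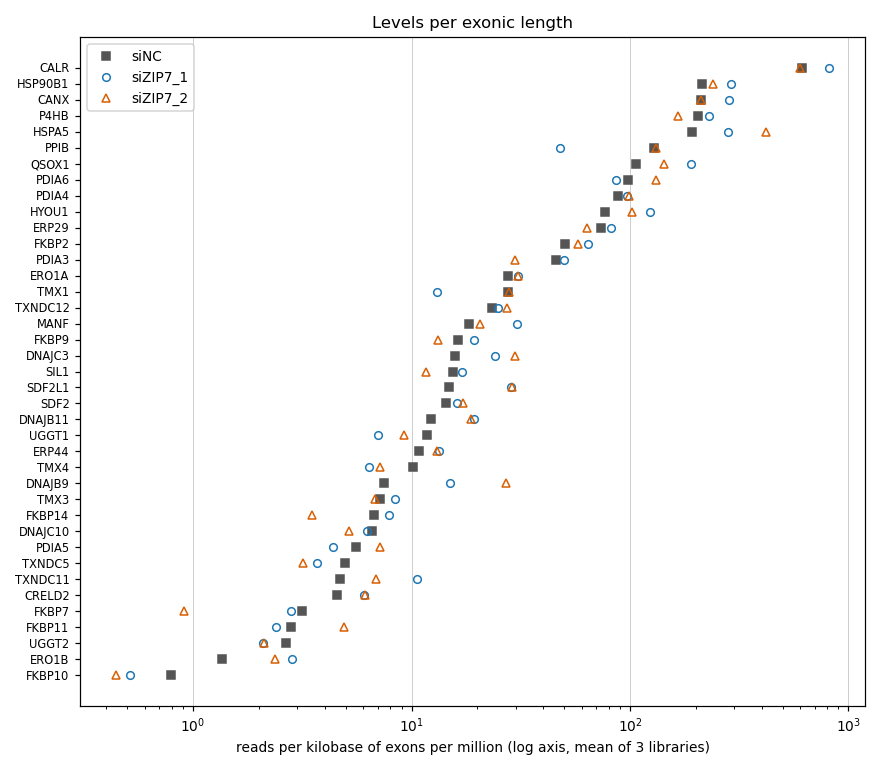
Mean level of each folding gene over 3 libraries in RPKM (x axis, log scale) with siNC (squares), siZIP7_1 (circles) and siZIP7_2 (triangles), ordered by the siNC level. The siNC levels run from 0.796 (FKBP10) to 616 (CALR), and a symbol far from its square marks a gene that changed much, such as PPIB with siZIP7_1 and FKBP7 with siZIP7_2.

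The summed reads give each class as a whole, where a long or abundant gene counts for more. The shares below are raw counts over all gene counts of a library and, unlike CPM, are not TMM-scaled. In summed CPM all 39 genes were at 10342 ± 204 with siNC, 13306 ± 469 with siZIP7_1 and 11875 ± 491 with siZIP7_2 (SD, n = 3 each). All 39 genes together took 1.01% ± 0.0144 of gene reads with siNC, 1.37% ± 0.0281 with siZIP7_1 and 1.18% ± 0.0441 with siZIP7_2 (SD, n = 3 each). The HSP70 and HSP90 system took 0.263% ± 0.00172 with siNC, 0.405% ± 0.0117 with siZIP7_1 and 0.406% ± 0.0249 with siZIP7_2. Its share was thus nearly the same with both siRNAs, although its genes moved differently. In summed CPM this class was at 2704 ± 5.77, 3924 ± 170 and 4085 ± 261 in the same order. The lectin chaperones took 0.305% ± 0.00865, 0.422% ± 0.0104 and 0.305% ± 0.00813 in the same order. The oxidases took 0.117% ± 0.00580, 0.208% ± 0.00326 and 0.157% ± 0.00515. In both classes the siZIP7_1 libraries took the largest share. QSOX1 made up 80.3% to 88.5% of the oxidases in every library, so their share mostly follows that gene. The disulfide isomerases took 0.274% ± 0.00242, 0.301% ± 0.00792 and 0.266% ± 0.00581. In summed CPM they were at 2819 ± 35.4, 2919 ± 120 and 2679 ± 73.9, and siZIP7_1 replicate 3 (2814 CPM) lay within the siNC libraries. The prolyl isomerases took 0.0462% ± 0.000355, 0.0371% ± 0.000589 and 0.0458% ± 0.000782, and were the only class with its lowest share with siZIP7_1. PPIB made up 51.5% to 52.8% of this class with siNC, and its mean was 247 CPM there and 91.0 CPM with siZIP7_1. With siZIP7_1 FKBP2, FKBP9 and FKBP14 were higher, and FKBP10 and FKBP11 were lower. The class shares are descriptions and were not tested. CALR was the most abundant folding gene by reads in all siNC and siZIP7_1 libraries, and HSPA5 was in siZIP7_2 replicates 1 and 3.

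**Figure D5:**
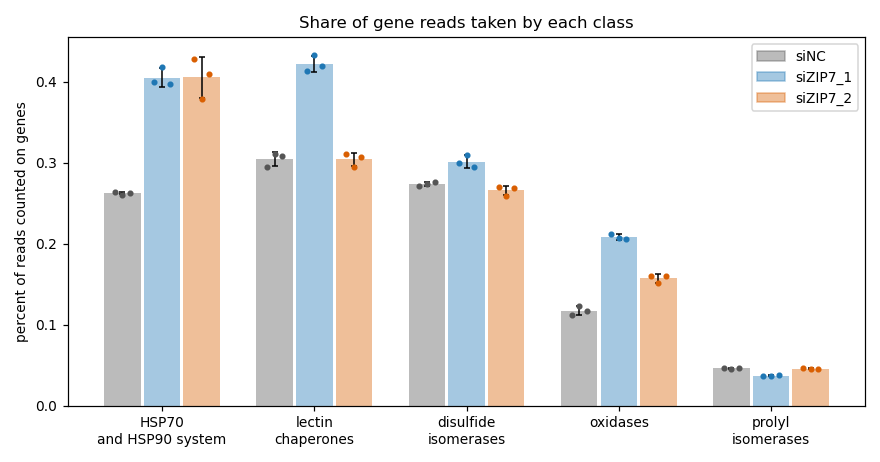
Share of gene reads (y axis, percent, from 0) taken by each class of folding genes, with the mean (bar), SD (whisker) and 3 libraries (points) per siRNA. The HSP70 and HSP90 system is at 0.405% and 0.406% with the siZIP7 siRNAs against 0.263% with siNC, while lectin chaperones and oxidases are highest with siZIP7_1. Shares are not TMM-scaled, and QSOX1 made up 80.3% to 88.5% of the oxidases.

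Other genes of protein quality control were counted in the same way. Their counts are to be read against the shares of all genes tested, which were 34.8% higher and 35.9% lower with siZIP7_1 and 38.5% higher and 39.3% lower with siZIP7_2, and against medians of all genes of -0.01 and 0.00. None of the lists was tested as a list. Of 15 UPR sensors and factors, 7 were higher and 8 lower with siZIP7_1 (46.7% and 53.3%, median -0.14), and 7 were higher and 7 lower with siZIP7_2 (46.7% each, median 0.04). The extremes were EIF2AK3, the sensor PERK, at 1.26 and XBP1, whose RNA is spliced by IRE1, at -0.72 with siZIP7_1. With siZIP7_2 they were ATF3, a stress-induced transcription factor, at 1.49 and MBTPS2, the protease that frees ATF6, at -1.33. Counts per gene do not separate spliced from unspliced XBP1 RNA, so the splicing was not measured. Of 20 genes of ER-associated degradation, 9 were higher and 8 lower with siZIP7_1 (45% and 40%, median 0.03), and 14 were higher and 5 lower with siZIP7_2 (70% and 25%, median 0.20). EDEM1, a lectin that sends misfolded glycoproteins to degradation, led with siZIP7_1 at 1.17, and HERPUD1, a membrane scaffold of the pathway, led with siZIP7_2 at 1.92. DERL3, of the retrotranslocation channel family, was lowest with each siRNA, at -1.41 and -0.92. It had between 4 and 22 counts in a library, and SMARCB1 overlaps 77% of its exonic length on the opposite strand, with the strand setting not given in the sources used here. Of 19 genes of the translocon and signal peptidase, 8 were higher and 4 lower with siZIP7_1 (42.1% and 21.1%, median 0.07), and 10 were higher and 4 lower with siZIP7_2 (52.6% and 21.1%, median 0.15). SRPRA, the receptor for the signal recognition particle, was the lowest at -1.83 with siZIP7_1 and was at 0.05 with siZIP7_2 (adjusted p = 0.322, edgeR). The channel proteins TRAM1 at 1.03 with siZIP7_1 and SEC61A1 at 0.59 with siZIP7_2 were the highest, and TRAM2 was the lowest with siZIP7_2 at -1.04.

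Of 14 collagen folding enzymes, 8 were lower and 6 higher with siZIP7_1 (57.1% and 42.9%, median -0.38), and 10 were lower and 4 higher with siZIP7_2 (71.4% and 28.6%, median -0.65). P4HA3, a catalytic subunit that pairs with P4HB, was the lowest with siZIP7_1 at -1.45 and the highest with siZIP7_2 at 1.77. These P4HA3 values rest on few reads, with 10, 9 and 6 counts in the siNC libraries, 4, 5 and 1 with siZIP7_1 and 30, 37 and 23 with siZIP7_2, where 1 library is under the floor of 3 counts. COLGALT2, a collagen galactosyltransferase, was highest with siZIP7_1 at 1.36, and CRTAP, which works in a complex with PPIB, was lowest with siZIP7_2 at -1.28. Of 26 other proteins of ER folding and redox, 22 were tested, of which 5 were higher and 8 lower with siZIP7_1 (22.7% and 36.4%, median -0.07), and 7 were higher and 12 lower with siZIP7_2 (31.8% and 54.5%, median -0.18). AGR2, a PDI relative of secretory epithelia, was highest with siZIP7_1 at 1.33 and lowest with siZIP7_2 at -2.19. RCN1, a calcium-binding protein of the lumen, was lowest with siZIP7_1 at -2.21, and SELENOM, a selenoprotein with a thioredoxin-like fold, was highest with siZIP7_2 at 1.43. Chaperones outside the ER were counted for comparison. Of 41 cytosolic chaperones, 12 were higher and 18 lower with siZIP7_1 (29.3% and 43.9%, median -0.06), and 15 were higher and 21 lower with siZIP7_2 (36.6% and 51.2%, median -0.16). Their extremes were ST13, an HSP70 cofactor, at 1.03 and FKBP5, a co-chaperone of HSP90, at -1.34 with siZIP7_1, and the small heat shock protein HSPB8 at 3.09 and the chaperonin subunit CCT6A at -0.96 with siZIP7_2. Of 14 mitochondrial chaperones, 2 were higher and 11 lower with siZIP7_1 (14.3% and 78.6%, median -0.43), and 5 were higher and 7 lower with siZIP7_2 (35.7% and 50%, median -0.12). LONP1, a protease and chaperone, was the highest at 0.61 and the import motor subunit DNAJC19 the lowest at -1.07 with siZIP7_1. With siZIP7_2 they were cyclophilin D, PPIF, at 0.43 and the HSP40 DNAJA3 at -1.54.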

How the data were processed

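MDA-MB-231 RNA was sequenced as single reads in 9 libraries. For each library, the authors deposited raw read counts by Ensembl gene that were not normalized, and the 5 summary lines of each count table were left out. The submitters' processing notes name Trim Galore 0.4.1, FastQC 0.11.2, STAR, HTSeq 0.6.1 and DESeq2 1.16.1, without roles. The genome build and the strand setting are not given in the sources used here. The summary lines give 0 reads with several alignments in every library. How such reads were handled before the counting is not given in the sources used here. Of the identifiers, 58275 were in GENCODE release 29 (GRCh38), which gave symbols, positions and exonic lengths. HSPA14 has more than one identifier, and the lower was used.

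Groups were taken from the sample labels. Tests were run with edgeR 4.0.16 in R 4.3.3 (TMM, filterByExpr, glmQLFit and glmQLFTest, Benjamini-Hochberg at 0.05) in one fit of 9 libraries with 6 residual degrees of freedom and a biological coefficient of variation of 4.50%. The SE is the log2 fold change divided by the square root of F. CPM are TMM-scaled and RPKM divide them by exonic length. A floor of 3 counts was 0.0985 to 0.124 CPM and covers counting error only. Members and lists were chosen by function with earlier results of these data known. All members are named, and library values are given for HSPA5, HSP90B1, CALR, CANX, P4HB, ERO1A, the largest change of each class in each contrast, and members called in opposite directions by at least 1.2-fold. From other lists the highest and lowest genes called against siNC are named. Alternatives were DESeq2 1.42.0 and its size factors, upper-quartile scaling, no filter, at least 10 counts in every library, glmTreat, a 2-fold threshold, the replicate number as a block, only the 6 libraries compared, and each library left out. The chi-squared per gene between 2 libraries was 2.34 to 5.93 within groups and 150.0 to 264 between groups. The protein sequences of the members were not analysed here, and a planned cell type marker is not reported here.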

Additional observations from a re-analysis of the deposited data

Results flagged for a closer look

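The folding genes below are listed because they differed between the siRNAs in the test of siZIP7_2 against siZIP7_1 (edgeR, past the threshold of 0.05). In addition, either each siRNA moved them past the threshold in opposite directions or the difference was at least 2-fold. The share of all genes that meet this rule is not given here, so the number listed cannot be read against the background. Between the siRNAs 78.7% of all genes tested passed the threshold. At least 1.5-fold apart were 50% of all genes and 25.6% of the folding genes. Values are the log2 difference of siZIP7_2 minus siZIP7_1, with the log2 fold changes of siZIP7_1 and siZIP7_2 against siNC in parentheses. Higher with siZIP7_1 and lower with siZIP7_2 were SIL1 by -0.56 (0.14 and -0.42), PDIA3 by -0.74 (0.12 and -0.61), P4HB by -0.46 (0.16 and -0.30), ERP29 by -0.37 (0.14 and -0.22), FKBP9 by -0.55 (0.25 and -0.30) and FKBP14 by -1.16 (0.23 and -0.94). The 3 genes with the opposite pattern were PDIA5 by 0.72 (-0.36 and 0.37), PDIA6 by 0.61 (-0.18 and 0.43) and FKBP11 by 1.03 (-0.23 and 0.79). A further 3 differed by at least 2-fold while one siRNA left them short of the threshold, namely TMX1 by 1.11 (-1.09 and 0.02), PPIB by 1.47 (-1.44 and 0.03) and FKBP7 by -1.62 (-0.18 and -1.80). The siZIP7_1 values of SIL1, PDIA3 and FKBP11 lost their call when single libraries were left out, and that of FKBP7 gained one without siNC replicate 2 (-0.27, adjusted p = 0.0355, edgeR). Tested against a 1.2-fold change (glmTreat of edgeR), PDIA5 alone of the 9 genes with opposite directions kept its call with each siRNA. The siZIP7_1 calls of SIL1, PDIA3, P4HB, ERP29, FKBP9, FKBP14, PDIA6 and FKBP11 were lost under that test, and so were the siZIP7_2 calls of P4HB, ERP29 and FKBP9, while the differences between the siRNAs passed it for all 12 genes. What sets the siRNAs apart in these genes was not tested.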

How the results depend on the processing

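Over all alternatives, 1861 of 1989 log2 fold changes of folding genes kept their direction and their side of the threshold, 72 lost a call, 18 gained one and 38 changed sign. With a 2-fold in place of a 1.5-fold threshold, 2 folding genes were higher and 2 lower with siZIP7_1, 2 higher and 1 lower with siZIP7_2, and 3 higher and 2 lower between the siRNAs. The share of all genes at 2-fold is not given here, so these counts cannot be read against the background. Tested against a 1.2-fold change with glmTreat, 15 were higher and 7 lower with siZIP7_1, where 25.4% and 25.7% of all genes were. With siZIP7_2 that test gave 13 higher and 9 lower, where 30.5% and 30.8% of all genes were. The folding genes at least 1.5-fold lower with siZIP7_2 numbered 3 under upper-quartile scaling and 3 when every library had to hold 10 counts, and those lower between the siRNAs were 7 with no filter. The shares of all genes at 1.5-fold under these settings are not given here. Lower at any fold with siZIP7_2 were 6588 of all genes in the main fit, 5803 under upper-quartile scaling and 5636 with 10 counts. Between the siRNAs 6800 were lower in the main fit and 7433 with no filter. These counts of folding genes are thus not read as a result about them. Upper-quartile scaling moved the median of all genes with siZIP7_2 from -0.0018 to 0.1042, and with it the called values of HSP90B1 (0.2726), MANF (0.2686), PDIA4 (0.2807), P4HB (-0.1951), ERP29 (-0.1176), ERO1A (0.2491), FKBP2 (0.2981) and FKBP9 (-0.1897) moved by over 1.5 times. The values that changed sign were near 0. With siZIP7_2 they were CALR (0.0655) and TMX3 (0.0329) with upper-quartile scaling, CALR (0.0329) and TMX3 (0.0009) with at least 10 counts, and CANX (-0.0391), TMX1 (-0.0337), PPIB (-0.0250) and SRPRA (-0.0014) with no filter. Between the siRNAs, ERP44 and ERO1A were 0.0035 and 0.0271 with DESeq2, 0.0035 and 0.0272 with its size factors, 0.0494 and 0.0740 with upper-quartile scaling, and 0.0201 and 0.0440 with at least 10 counts, DNAJB11 was 0.0227 with upper-quartile scaling, ERO1A was 0.0133 with only the 6 libraries compared, and SDF2L1 (-0.0377), UGGT2 (-0.0340), PDIA4 (-0.0056) and CRELD2 (-0.0418) changed with no filter. With each library left out, members higher and lower ranged from 22 to 26 and 8 to 11 with siZIP7_1, and from 19 to 21 and 13 to 13 with siZIP7_2. The log2 values that crossed 0 were PPIF -0.0034 to 0.0919 with siZIP7_1, CALR -0.0673 to 0.0018, CANX -0.0385 to 0.0453 and TMX1 -0.0680 to 0.0776 with siZIP7_2, and CRELD2 -0.0316 to 0.0307, SDF2L1 -0.0484 to 0.0604, UGGT2 -0.0279 to 0.0510, ERP44 -0.0740 to 0.0182, ERO1A -0.0810 to 0.0529 and PDIA4 -0.0045 to 0.0997 between the siRNAs. The cause of these changes was not tested.

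Libraries of different groups with the same replicate number had a mean correlation of 0.0115 over 9 pairs, and those with other numbers -0.00575 over 18 pairs. These correlations use deviations from the mean of 3 libraries per group. They cannot tell whether libraries with the same number share a day, a culture or a batch. With the replicate block, 5871 genes were higher and 6056 lower with siZIP7_1, 6476 and 6604 with siZIP7_2, and 6413 and 6829 between the siRNAs, and among the folding genes only TXNDC5 between the siRNAs gained a call (-0.21, adjusted p = 0.03, edgeR).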
